A study of Mus musculus with 10 samples.

Results

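The regions described are Qki-5 promoter peaks without RNA polymerase II (Pol II): peaks of the WT Qki-5 list that overlapped the region within 2 kb of an annotated transcription start site (TSS) by at least 1 bp and overlapped no peak of the WT Pol II list. There were 367 such peaks among the 4594 WT Qki-5 peaks at promoters and the 7539 WT Qki-5 peaks in all, and they are called Pol II-negative promoter peaks here. Because they were chosen by the WT Qki-5 and WT Pol II lists and by position, their values in those lists are given as a description. The other 4227 promoter peaks, called Pol II-positive, overlapped a WT Pol II peak, and 1196 further Qki-5 peaks lay outside promoters without Pol II. TSSs were those of the GENCODE M21 basic annotation, 77258 in number for 55450 genes, and coordinates are those of mm10 (GRCm38).

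Chromatin immunoprecipitation and sequencing (ChIP-seq) was performed on oligodendrocytes that had been differentiated in medium with triiodothyronine from cultured neural stem cells of FvB/C57BL6 hybrid mice. The genotypes compared were Qk-/- and WT, with 1 library for each antibody and genotype. According to the methods, the stem cells came from whole brains of newborn Nestin-CreERT2;Qk L/L pups, in which Cre follows the Nestin promoter, exon 2 of Qk is flanked by loxP sites and Qk was deleted in culture with 4-hydroxytamoxifen. Whether the WT cultures carried the same alleles or received the drug is not given in the sources used here. The Qki-5 antibody was raised in rabbits against a synthetic peptide, the Pol II antibody recognizes the repeats of its C-terminal domain, and chromatin for both was taken at passage 7, with a common input in each genotype. The lists held 427 Qki-5 and 12835 Pol II peaks in Qk-/- cells, and 7539 Qki-5 and 32280 Pol II peaks in WT cells. Srebp2 libraries, made at passage 8 with their own inputs, gave 28 peaks in Qk-/- cells and 77 in WT cells. The WT Qki-5 and WT Srebp2 lists are much shorter than the peak sets that the study describes, so a site without a listed peak here may have had one there, and every overlap holds for the deposited lists only. The numbers of reads are not in the lists, so depth is unknown. Without replicates no test between genotypes was possible, and intervals are exact 95% Clopper-Pearson intervals for shares, or order-statistic intervals for medians, that cover counting error only and treat peaks as independent.

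Qki-5 is the nuclear isoform of Quaking, an RNA-binding protein of the STAR family that controls splicing and stability of RNA in oligodendrocytes and was also found on chromatin. Pol II marks promoters at which transcription has started or is poised. Promoters of the homeobox, forkhead, GATA and T-box factors that pattern the embryo are typically rich in CpG dinucleotides, and in neural cells most of them are silent and covered by Polycomb repressors.

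The labelled cell type was checked by Pol II at marker promoters. A Pol II peak was listed at 3 of 12 oligodendrocyte markers in Qk-/- cells and at 3 of 12 in WT cells, namely Cnp, Olig1 and Olig2 in both, and none at the myelin genes Mbp, Mag and Mog. Oligodendrocyte precursor markers had one at 2 of 4 promoters in Qk-/- cells and 3 of 4 in WT cells. Neural stem cell markers had a peak at 4 of 4 promoters in both genotypes, astrocyte markers at 3 of 5 in both, neuronal markers at 1 of 6 in Qk-/- cells and 2 of 6 in WT cells, and microglial markers at 0 of 4 in both. None of these marker promoters had a Pol II-negative Qki-5 peak. The Qk promoter had a WT Qki-5 peak of 8.13-fold over input and none in the Qk-/- list. Its Pol II peak, 9.48-fold in Qk-/- cells and 14.9-fold in WT cells, does not check the deletion, which removes exon 2. Peaks of the 4 Qki-5 and Pol II files are named mNSC and those of the Srebp2 files OL, and whether the cells differed in state was not tested.

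The DNA under the strongest peaks is shown first, because a short word recurred in it. Each sequence is 151 bases of the forward strand of the mm10 reference centered on the summit of a peak, 5′ to 3′, with capitals marking the word AACGAA or its reverse complement TTCGTT. They are 7 of the 10 strongest Pol II-negative promoter peaks, and that at Foxl2, whose summit lies in an untranslated region, is not shown. All 7 also overlapped a Qki-5 peak of Qk-/- cells.
Igf2bp3 (chr6:49218500-49218650, intergenic, summit 3618 bp upstream of the TSS): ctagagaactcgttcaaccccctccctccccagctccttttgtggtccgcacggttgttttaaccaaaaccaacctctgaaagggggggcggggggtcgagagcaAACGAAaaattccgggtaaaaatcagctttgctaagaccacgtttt
Tlx2 (chr6:83070661-83070811, intergenic, 443 bp upstream): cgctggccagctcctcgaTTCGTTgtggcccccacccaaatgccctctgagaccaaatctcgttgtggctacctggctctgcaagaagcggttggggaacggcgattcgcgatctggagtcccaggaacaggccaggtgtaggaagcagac
Gm14205 and Slc32a1 (chr2:158612551-158612701, intronic, 806 bp upstream of Gm14205): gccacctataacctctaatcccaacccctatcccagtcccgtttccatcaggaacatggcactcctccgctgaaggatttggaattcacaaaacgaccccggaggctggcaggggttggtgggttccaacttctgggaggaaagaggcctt
Nr5a1 (chr2:38710913-38711063, intronic, 1246 bp downstream): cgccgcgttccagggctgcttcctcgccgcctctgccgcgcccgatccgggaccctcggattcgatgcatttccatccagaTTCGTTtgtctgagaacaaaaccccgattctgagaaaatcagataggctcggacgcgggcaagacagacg
Gm47071 (chr13:55826985-55827135, intronic, 810 bp downstream): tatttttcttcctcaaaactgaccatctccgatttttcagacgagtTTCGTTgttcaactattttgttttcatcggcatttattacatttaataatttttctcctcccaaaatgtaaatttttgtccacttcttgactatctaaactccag
Gm20649 (chr9:74850144-74850294, intronic, 1756 bp downstream): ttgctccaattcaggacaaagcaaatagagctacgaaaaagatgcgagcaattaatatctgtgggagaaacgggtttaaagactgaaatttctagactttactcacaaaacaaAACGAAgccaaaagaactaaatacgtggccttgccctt
Tfap2a (chr13:40730579-40730729, intronic, 211 bp upstream): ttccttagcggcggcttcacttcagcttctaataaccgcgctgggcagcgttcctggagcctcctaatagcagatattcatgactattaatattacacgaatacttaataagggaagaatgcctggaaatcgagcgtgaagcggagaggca

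Pol II-negative promoter peaks included the strongest Qki-5 peaks of WT cells. The highest, 48.1-fold over input and 9841 bp wide, covered the promoter of Igf2bp3, which encodes an RNA-binding protein of embryonic tissues, on chromosome 6 from 49213823 to 49223663. It was followed by Tlx2 (37.5-fold, 1832 bp), a homeobox factor of the enteric nervous system, and by a peak of 24.9-fold at Slc32a1, the vesicular GABA transporter, and the noncoding genes Gm14204 and Gm14205. The nuclear receptor gene Nr5a1, needed for adrenal and gonadal development, had 23.5-fold. Others among the 10 strongest were Foxl2 (17.9-fold), the ovarian forkhead factor, the noncoding Gm47071 (17.3-fold), whose nearest coding TSS, 4365 bp from the summit, was that of the hindlimb factor Pitx1, the noncoding pair Gm16551 and Gm20649 (16.7-fold), 11702 bp from Onecut1, Tfap2a (15.98-fold), a factor of neural crest and epidermis, and Shox2 (15.8-fold, shared with Rsrc1), a limb and heart homeobox factor. Of the 103 WT Qki-5 peaks that ranked 1 to 100 by fold enrichment, ties included, 34 were Pol II-negative promoter peaks.

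The median fold enrichment of the 367 peaks was 5.81 (95% interval 5.61 to 6.04; range 1.67 to 48.1), against 5.10 (5.06 to 5.13) at Pol II-positive promoter peaks and 5.44 (5.34 to 5.58) outside promoters without Pol II. An enrichment of at least 10-fold was reached by 43 of 367 (11.7%, 8.61 to 15.5%), against 79 of 4227 Pol II-positive peaks (1.87%, 1.48 to 2.32%). Their widths differed more. At least 1000 bp were covered by 76 of 367 peaks (20.7%, 16.7 to 25.2%), against 90 of 4227 (2.13%, 1.72 to 2.61%), and the medians were 425 bp (383 to 475 bp) and 368 bp (360 to 374 bp). Other wide peaks were at Sim1 (5003 bp), a hypothalamic factor, Osr2 (4313 bp), a factor of palate and limb, and the neuritin gene Nrn1 (3746 bp). Width and enrichment went together over the 367 peaks (Spearman's rho 0.594), more closely than over the 4227 Pol II-positive peaks (rho 0.245), which share the library. These values describe the WT list that chose the peaks, and a wide peak has more room to meet a Pol II peak.

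**Figure D1:**
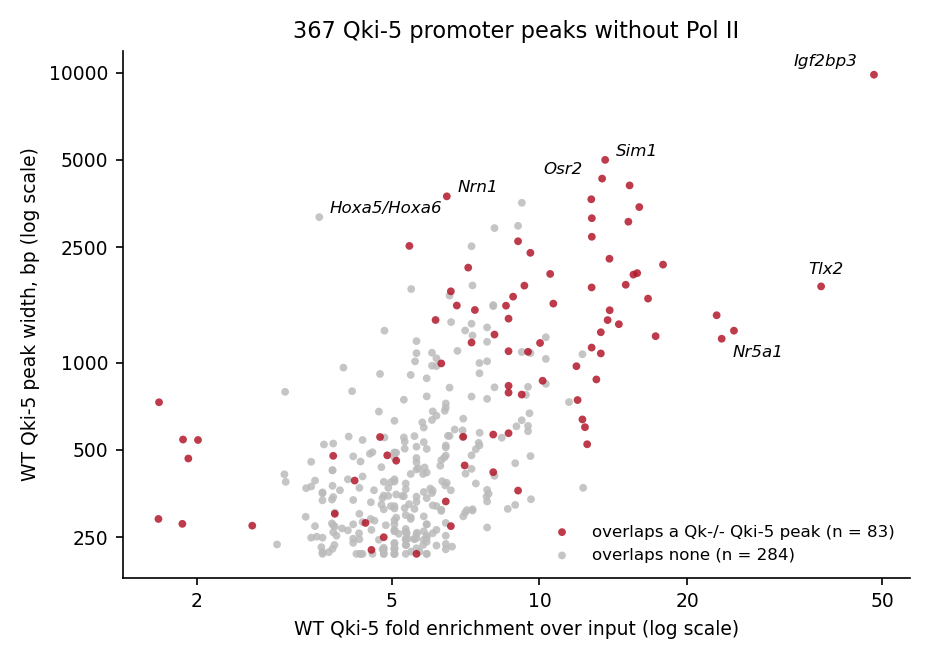
WT Qki-5 fold enrichment over input (x, log scale) and peak width in bp (y, log scale) of the 367 Pol II-negative promoter peaks, 1 point a peak, from 1 library. Red points overlap a Qki-5 peak of Qk-/- cells (83) and lie mostly at high enrichment and width, grey points overlap none (284), and the red points near 2-fold belong to the rRNA locus of chromosome 17 and to Gm23935.

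Many of the peaks stood side by side. Peaks within 10 kb of each other were joined into 241 loci, of which 62 held 2 or more peaks, 188 peaks in all. The largest was in the Hoxa cluster on chromosome 6, where 16 peaks lay between 52190860 and 52248438. The same cluster held 3 more around Hoxa13 and Hottip, the long noncoding RNA at its 5′ end, and 2 at Hoxaas3 and 5730596B20Rik. A locus of 8 peaks spanned Sox1, a factor of neural progenitors, and its noncoding neighbors Sox1ot, Gm45560 and Gm25239. A locus of 6 peaks spanned Dlx1 and Dlx2, homeobox factors of GABAergic interneurons, with 2 peaks at each and 4 at Dlx1as, and another of 6 spanned Tfap2a (2 peaks), Gm26688 and Gm47061. A group of 4 peaks each lay at Gata2, a blood and neuronal factor, at Gfi1, a zinc-finger repressor, and at Lhx9, a LIM-homeobox factor. Other clusters were not at listed developmental genes, with 7 peaks over the pseudogenes Gm15039 to Gm15045 on chromosome X and 5 at Gm4895, Raet1e and H60b, of which the last is a ligand of an activating receptor on natural killer cells, on chromosome 10.

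Summits lay farther from start sites than at Pol II-positive promoters. The median distance from the summit to the nearest TSS was 705 bp (572 to 827 bp), against 112 bp (107 to 118 bp), and the summit was within 500 bp of a TSS in 157 of 367 peaks (42.8%, 37.7 to 48.0%), against 3671 of 4227 (86.8%, 85.8 to 87.9%). It was upstream of that TSS in 172 peaks (46.9%), against 1829 (43.3%), and the intervals overlapped. Summits were in introns in 141, in intergenic DNA in 92, in untranslated regions in 51 and in other exons in 83 of the 367 peaks. A protein-coding promoter was overlapped by 233 of 367 peaks (63.5%, 58.3 to 68.4%), against 3911 of 4227 (92.5%, 91.7 to 93.3%). Noncoding classes of the annotation were lincRNA (61 peaks), antisense RNA (42) and miRNA (13), each peak counting for every promoter that it overlapped. Some noncoding promoters adjoined a developmental gene. By their nearest coding TSS, Gm12827 (15.5-fold) was next to Rnf220, St8sia3os (13.8-fold) to Onecut2, AC166821.1 (13.1-fold) to Six2, Hottip (11.96-fold) to Hoxa13 and Gm26755 (10.3-fold) to Neurod1. These 5, like the genes of the clusters above, were picked with their values in view.

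For most of the peaks Pol II was far away. The nearest WT Pol II peak was at a median of 62607 bp and within 10000 bp in 65 of 367 (17.7%). A WT Pol II peak elsewhere in an overlapped promoter was present for 42 peaks (11.4%), and in the promoter or body of an overlapped gene for 62 (16.9%). The rule leaves some peaks that border on Pol II. Just inside it were the peaks at Shisa3 and 1700025A08Rik (8.65-fold), 56 bp from a Pol II peak, at Caps2 (7.82-fold), 92 bp away, and at Gm18092 (5.34-fold), 132 bp away. Just outside it were the Qki-5 peaks at Myc and Gm37947 (4.07-fold), which shared 12 bp with Pol II, at 1500015O10Rik (4.17-fold), which shared 20 bp, and at Mecom (14.4-fold), also 20 bp. Within 1 kb of Pol II lay 23 peaks, with a median of 5.16-fold, and none of them was at a listed developmental factor. They included Brca1 (3.78-fold, shared with Nbr1), a gene of DNA repair, Gins2 (4.60-fold), a gene of DNA replication, and the cell cycle kinase gene Cdk6 (3.82-fold), all picked with their values in view.

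Few of these peaks overlapped Pol II in Qk-/- cells, a list that the rule did not use. A Qk-/- Pol II peak was overlapped by 3 of the 367 peaks (0.817%, 0.169 to 2.37%), against 3763 of 4227 Pol II-positive peaks (89.0%, 88.0 to 89.95%) and 55% of all 7539 WT Qki-5 peaks. Elsewhere in an overlapped promoter or at the peak itself, Qk-/- Pol II was present for 29 peaks (7.90%), and in the promoter or body of an overlapped gene for 32 (8.72%). The 3 peaks that overlapped it were at Agap1 (7.05-fold for Qki-5), a regulator of endosomal traffic, Grik4 (4.17-fold), a kainate receptor subunit, and Pgm2l1 with Gm34821 (4.08-fold), a gene of the phosphoglucomutase family. Outside promoters, 3 of 1196 Qki-5 peaks without WT Pol II overlapped Qk-/- Pol II (0.251%, 0.0518 to 0.731%), so the intervals of both Pol II-negative classes overlapped. The Srebp2 lists were too short to show much overlap with any class: 1 of 367 peaks overlapped a WT Srebp2 peak (0.272%, against 0.424% of all WT Qki-5 peaks) and 0 of 367 a Qk-/- Srebp2 peak (upper bound 1.0%, against 0.172% of all). The 1 peak was at the miRNA gene Gm23935 on chromosome 16 and had a Qki-5 enrichment of 2.60-fold.

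Qki-5 peaks were called again at many of these promoters in Qk-/- cells. Of the 367 peaks, 83 overlapped a Qk-/- Qki-5 peak (22.6%, 18.4 to 27.2%), against 4.06% of all WT Qki-5 peaks. The share was 125 of 4227 at Pol II-positive promoters (2.96%, 2.47 to 3.51%) and 86 of 1196 outside promoters without Pol II (7.19%, 5.79 to 8.80%). Seen from the Qk-/- list, 102 of its 427 peaks (23.9%) overlapped a Pol II-negative promoter peak, including 6 of its 10, 7 of its 20 and 16 of its 50 strongest. Most of that list lay elsewhere, with 135 peaks (31.6%) at promoters with WT Pol II and 189 (44.3%) outside promoters. The Qk-/- list is 1 library, and what the antibody recovered there was not tested.

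The overlap was highest at the strongest peaks. All 30 of the strongest Pol II-negative promoter peaks overlapped a Qk-/- peak, against 14 of the 30 strongest Pol II-positive peaks. In the bin of 10- to 15-fold the shares were 24 of 30 (80.0%, 61.4 to 92.3%) and 23 of 72 (31.9%, 21.4 to 44.0%), and under 5-fold 15 of 104 (14.4%, 8.30 to 22.7%) and 21 of 1937 (1.08%, 0.672 to 1.65%). It did not climb evenly, since at 5- to 7.5-fold it was 15 of 168 for Pol II-negative peaks (8.93%, 5.08 to 14.3%), against 44 of 1896 (2.32%, 1.69 to 3.10%), and under 5-fold 6 of the 15 were at the rRNA locus of chromosome 17 described below, without which 9 of 98 (9.18%) remained. Outside promoters without Pol II the shares were 18 of 26 (69.2%) at 10- to 15-fold and 8 of 416 (1.92%) under 5-fold, and at 10- to 15-fold their interval (48.2 to 85.7%) overlapped that of the Pol II-negative promoter peaks. By width, the shares were 28 of 52 (53.8%) at 1000 to 2000 bp and 8 of 104 (7.69%) under 300 bp for Pol II-negative peaks, against 18 of 79 (22.8%) and 7 of 1314 (0.533%) for Pol II-positive peaks. Peaks with a Qk-/- counterpart had a median of 9.04-fold and 1173 bp in WT cells, and those without one 5.56-fold and 363.5 bp.

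**Figure D2:**
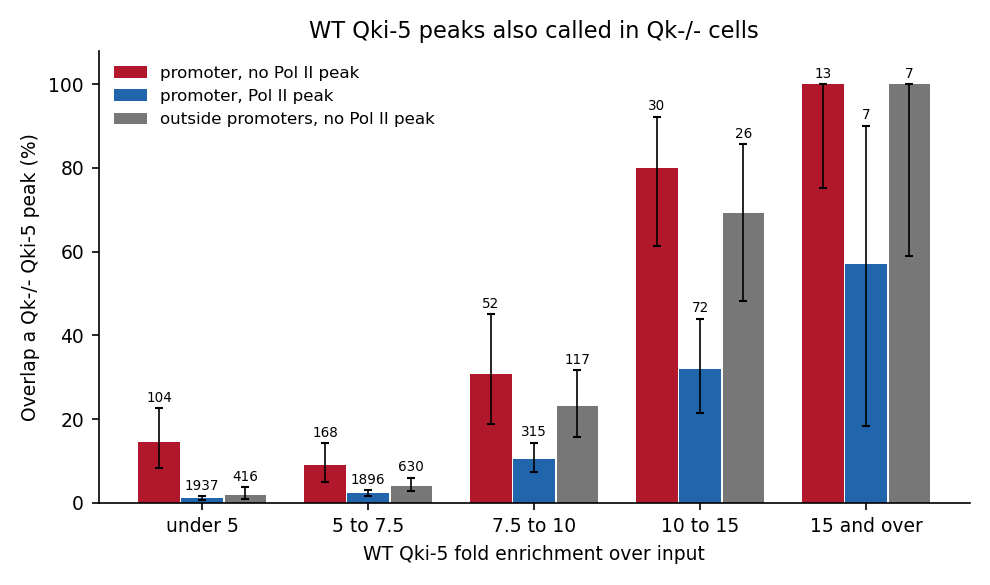
Share of WT Qki-5 peaks that overlap a Qki-5 peak of Qk-/- cells (y, %), by WT fold enrichment over input (x), for Pol II-negative promoter peaks (red), Pol II-positive promoter peaks (blue) and peaks outside promoters without Pol II (grey). Error bars are exact 95% intervals and numbers over the bars are peaks. At 10- to 15-fold the shares are 80.0%, 31.9% and 69.2%.

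Several of the strongest Qk-/- peaks were at promoters of developmental factors. Among the highest Qk-/- enrichments at Pol II-negative promoter peaks were 24.1-fold at Igf2bp3 (rank 3 of 427 in the Qk-/- list), 22.4-fold at Nr5a1 (rank 4) and 19.7-fold at Tlx2 (rank 7). The Igf2bp3 value counts for 2 WT peaks that the same Qk-/- peak met, of 48.1- and 4.81-fold. Gm12582, a noncoding gene, had 17.7-fold in Qk-/- cells (rank 10) and 6.596-fold in WT cells (rank 1691 of 7539). Over the 83 peaks, Spearman's rho between WT and Qk-/- fold enrichment was 0.610, and 0.513 over 77 without the chromosome 17 locus described next. The lists have different inputs and unknown depths, so the sizes of their enrichments were not compared. The weakest peaks with a Qk-/- counterpart formed a single locus on chromosome 17 from 39843036 to 39848786, where 6 peaks at Gm26917, Gm42418, AY036118 and the rRNA gene CT010467.1 had 1.67- to 2.01-fold and all 6 overlapped Qk-/- peaks. Without it the share was 77 of 361 (21.3%). Counting each locus once, by its strongest peak, it was 55 of 241 (22.8%).

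**Figure D3:**
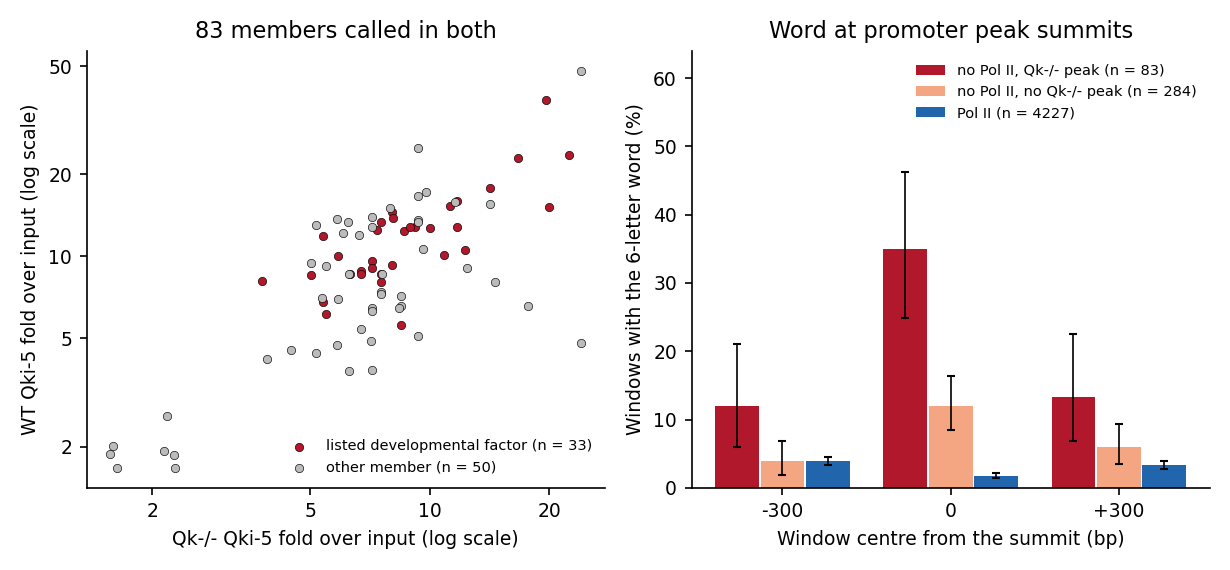
Left, fold enrichment in the Qk-/- list (x, log scale) and the WT list (y, log scale) of the 83 Pol II-negative promoter peaks called in both, with listed developmental factors in red (33) and others in grey (50). Right, share of 201-bp windows with AACGAA on either strand (y, %) at the summit and 300 bp to either side, for Pol II-negative promoter peaks with a Qk-/- peak (red), without one (orange) and Pol II-positive promoter peaks (blue), with exact 95% intervals; the summit values are 34.9%, 11.97% and 1.77%.

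Genes of embryonic transcription factors were frequent among these promoters. Of all 55450 genes, 356 (0.642%) had a Pol II-negative Qki-5 peak at their promoter, and of 21951 protein-coding genes 181 (0.825%, 0.709 to 0.953%). The share was 29 of 96 listed homeobox and paired-box factors (30.2%, 21.3 to 40.4%), 18 of 73 other developmental transcription factors (24.7%, 15.3 to 36.1%) and 9 of 39 Hox genes (23.1%, 11.1 to 39.3%). Together, 88 of the 367 peaks lay at such a factor (24.0%, 19.7 to 28.7%), against 23 of 4227 Pol II-positive peaks (0.544%, 0.345 to 0.815%). WT Pol II was listed at 19 of the 96, 17 of the 73 and 1 of the 39 promoters, against 11879 of 21951 protein-coding genes. Few listed factors had the WT Pol II that a Pol II-positive peak needs, so the rule bears on this contrast. Among genes without WT Pol II at the promoter, the shares were 29 of 77 (37.7%), 17 of 56 (30.4%) and 9 of 38 (23.7%), in the same order, against 148 of 10072 (1.47%). These 88 peaks had a median of 6.67-fold and 806.5 bp, 33 of them overlapped a Qk-/- Qki-5 peak (37.5%), and 36 were at least 1000 bp wide. The other 279 had a median of 5.61-fold and 383 bp, with 50 (17.9%) in the Qk-/- list. They include developmental factors that the lists leave out, such as Shox2, Sim1 and Osr2. The lists were drawn up with earlier results of these data known, so these counts are a description.

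Among homeobox factors outside the Hox clusters, strong peaks besides Tlx2 were at Alx1 (14.5-fold in WT cells), a factor of craniofacial mesenchyme, Hmx2 (13.3-fold), a factor of the inner ear, Lhx9 (12.8-fold), and Evx1 (12.8-fold), a factor of spinal interneurons next to the Hoxa cluster. All of these overlapped Qk-/- Qki-5 peaks, of 8.03-fold at Alx1, 7.55-fold at Hmx2, 9.20-fold at Lhx9 and 8.92-fold at Evx1. The nearest WT Pol II peak was 2284721 bp from the Alx1 peak and 3598 bp from the Hmx2 peak. Among the other factors, Tal1 (12.8-fold), which is needed for blood formation, and Foxc2 (10.03-fold), a factor of lymphatic vessels, followed Nr5a1, Foxl2 and Tfap2a. Next were Gata6 (9.58-fold), a factor of endoderm and heart, Runx3 (8.84-fold), a factor of sensory neurons and T cells, and Gata2 (8.65-fold). The strongest peak of each of these 8 genes overlapped a Qk-/- peak, but some weaker peaks at Foxc2, Tfap2a, Gata2 and Foxl2 did not. Over all peaks of these lists, Qk-/- peaks were overlapped by 18 of 43 at homeobox and paired-box factors and 12 of 30 at the other factors.

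The Hox genes divided by cluster. A Pol II-negative Qki-5 peak was present at 9 of 11 Hoxa promoters and at 0 of 28 Hoxb, Hoxc and Hoxd promoters. Hox factors specify position along the body axis, and a WT Pol II peak was listed at 1 of 11 Hoxa promoters and at 0 of the other 28. The strongest were at Hoxa4 (13.9-fold, 2282 bp), Hoxa7 (11.9-fold, 972 bp) and Hoxa3 (11.5-fold, 731 bp), and a second Hoxa3 peak had 9.32-fold. Peaks at Hoxa9 and Hoxa10 had 7.27-fold each, and a peak of 3176 bp at Hoxa5 and Hoxa6 had 3.56-fold. Of the 15 peaks at Hox genes, 3 overlapped Qk-/- Qki-5 peaks, those at Hoxa4 (8.07-fold in Qk-/- cells), Hoxa3 (8.03-fold) and Hoxa7 (5.39-fold). Qk-/- peaks were also overlapped by the 2 peaks at Hoxaas3 and 5730596B20Rik and by 2 of the 3 around Hoxa13 and Hottip. Without all of these peaks of the Hoxa cluster, 76 of 346 peaks (22.0%) overlapped a Qk-/- peak and 73 (21.1%) were at a listed factor.

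**Figure D4:**
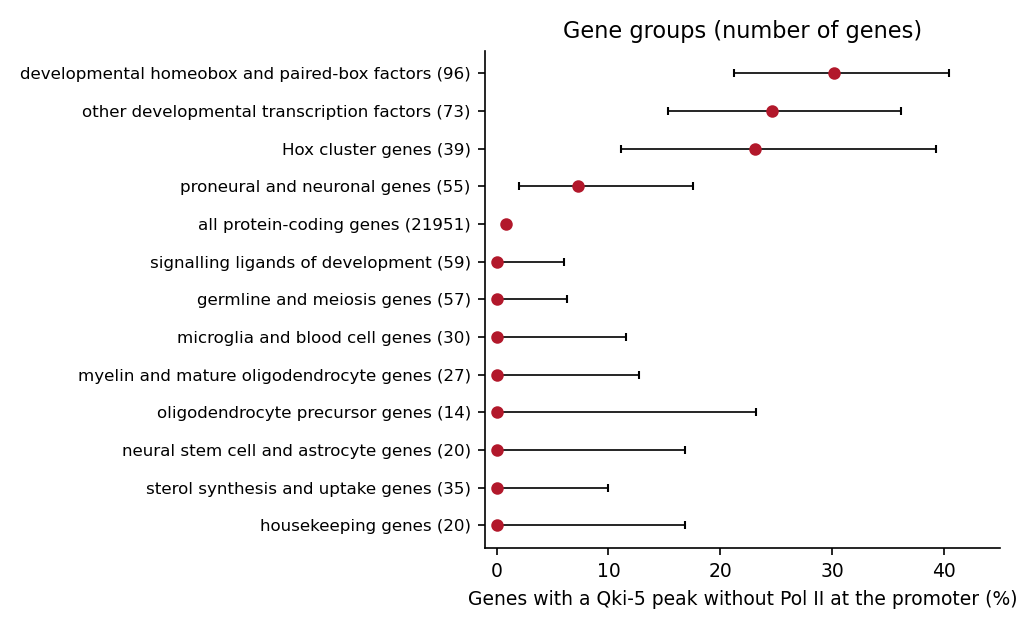
Share of the genes of each group that have a Pol II-negative Qki-5 peak at the promoter (x, %), with exact 95% intervals and the number of genes in parentheses. Homeobox and paired-box factors (30.2%), other developmental factors (24.7%) and Hox genes (23.1%) lie above all protein-coding genes (0.825%), and 8 groups are at 0.

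Of the proneural and neuronal genes, 4 of 55 had such a peak (7.27%, 2.02 to 17.6%), against 0.825% of all protein-coding genes, with 7 peaks in all. Besides Slc32a1 these were Bhlhe22 (7.54-fold) and Neurod2 (6.16-fold), factors of cortical neurons, and Neurog1 (5.10-fold), a proneural factor whose Qk-/- peak of 9.36-fold ranked 77 of 427. No such peak was found at 59 signaling ligands of development, 57 germline and meiosis genes, 30 microglial and blood cell genes, 27 myelin and mature oligodendrocyte genes, 14 precursor genes, 20 stem cell and astrocyte genes, 35 sterol genes or 20 housekeeping genes, with upper bounds of 6.06% for the ligands and 23.2% for the precursor genes. All of these bounds were above the 0.825% of all protein-coding genes, so the groups cannot be told apart from that background. WT Pol II was listed at 13 of the 59 ligands, 8 of the 57 germline genes, 5 of the 30 microglial and blood cell genes and 4 of the 27 myelin genes. It was listed at 20 of 20 housekeeping, 33 of 35 sterol, 17 of 20 stem cell and astrocyte and 9 of 14 precursor genes, where the lack of WT Pol II that the rule asks for leaves few promoters.

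Promoters without Pol II differed in how often they had Qki-5. Among protein-coding genes without WT Pol II at the promoter, families were counted by words of the RefSeq gene descriptions, a choice made after the data were seen. A Qki-5 peak was present at 41 of 174 homeobox genes (23.6%, 17.5 to 30.6%), 8 of 27 forkhead box genes (29.6%, 13.8 to 50.2%) and 3 of 6 GATA-binding genes, against 0 of 1091 olfactory receptor genes (upper bound 0.338%), 0 of 111 keratin genes (upper bound 3.27%) and 4 of 109 zinc finger genes (3.67%, 1.01 to 9.13%). Over all 8966 such genes with a description the share was 142 (1.58%, 1.34 to 1.86%). The keratin bound and the zinc finger interval include that share, so these 2 families cannot be told apart from it. Not all families counted are given here. The genes of the Igf2bp family of RNA-binding proteins, which are known for binding mRNA in embryonic and tumor cells, all had such peaks, 2 at Igf2bp3, 3 at Igf2bp1 (up to 7.55-fold) and 3 at Igf2bp2 (up to 5.06-fold). This family was picked with its values in view. Of the Igf2bp peaks only those at Igf2bp3 overlapped Qk-/- peaks.

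CpG content moved with the same difference. Within 500 bp of the first TSS, the observed over expected number of CpG was at least 0.75 in 551 of 10059 protein-coding genes without WT Pol II, of which 63 carried a Qki-5 peak (11.4%, 8.90 to 14.4%). Under 0.25 it was 10 of 5486 (0.182%, 0.0874 to 0.335%). Within the high bin, the share was 22 of 56 listed developmental factors (39.3%, 26.5 to 53.2%) and 41 of 495 other genes (8.28%, 6.01 to 11.1%). In the bin of 0.5 to 0.75 it was 26 of 80 (32.5%, 22.4 to 43.9%) and 38 of 1320 (2.88%, 2.05 to 3.93%). In both bins the share was higher for the listed developmental factors, but their lists were drawn up with earlier results of these data known. The other genes include homeobox genes outside the lists. Without these, the shares of the other genes were 37 of 484 (7.64%) and 35 of 1310 (2.67%). Neighboring genes, such as those of the Hoxa cluster, were counted separately. Whether CpG content accounts for the difference was not tested. From 0.25 to 0.5 the shares were 5 of 26 (19.23%) and 6 of 2596 (0.231%).

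**Figure D5:**
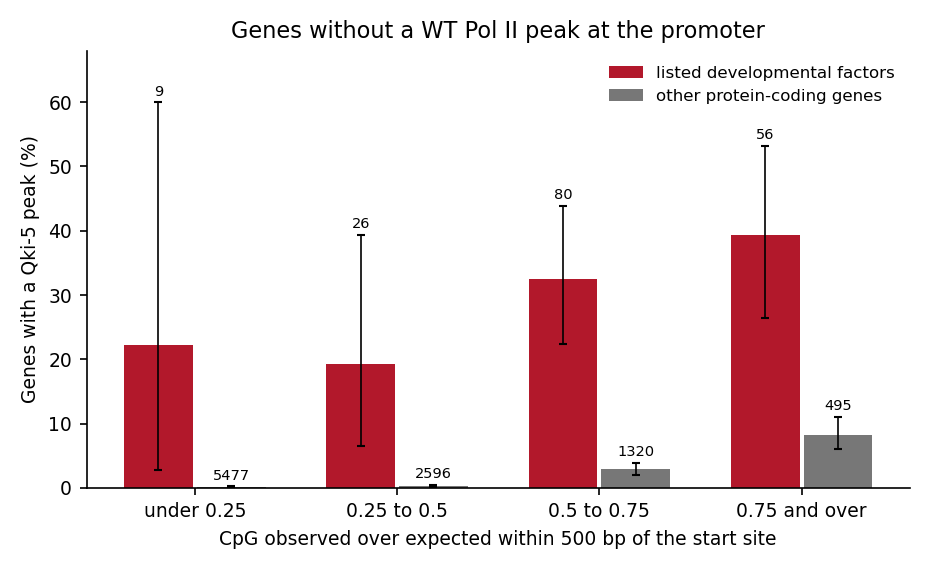
Protein-coding genes without a WT Pol II peak at the promoter, by observed over expected CpG within 500 bp of the start site (x), and the share with a Qki-5 peak (y, %), for listed developmental factors (red) and other genes (grey). Error bars are exact 95% intervals and numbers are genes; at 0.75 and over the shares are 39.3% and 8.28%.

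By G+C and CpG content, the summits lay between those of Pol II-positive promoter peaks and those of peaks outside promoters without Pol II. These classes also differed in median distance from the summit to a TSS, which was 705 bp, 112 bp and 19286 bp in the order of the next sentence. Within 100 bp of the summit the median G+C content was 53.7% (51.7 to 55.7%), against 68.7% (68.2 to 68.7%) at Pol II-positive promoter peaks and 49.8% (49.8 to 50.7%) outside promoters without Pol II. The median observed over expected CpG was 0.633 (0.552 to 0.691), against 0.886 (0.880 to 0.893) and 0.210 (0.194 to 0.224). Windows of at least 55% G+C and a CpG ratio of at least 0.65, the composition of a CpG island, were 118 of 367 (32.2%, 27.4 to 37.2%), against 3316 of 4227 (78.4%, 77.2 to 79.7%) and 37 of 1195 (3.10%, 2.19 to 4.24%). Fold enrichment followed G+C content little (Spearman's rho -0.17 over 367 peaks). In the same order, the GC box GGGCGG was in 21.5%, 56.6% and 5.77% of windows on either strand and the TATA box TATAAA in 8.99%, 2.41% and 6.86%. The Sox word ACAAAG was in 14.4%, 8.82% and 25.4%, and one arm of the nuclear factor I site, TTGGCA, in 11.7%, 7.26% and 30.5%. The Qki response element of RNA, searched in DNA as ACTAAC or ACTAAT, was in 25 of 367 windows (6.81%, 4.46 to 9.89%), 132 of 4227 (3.12%, 2.62 to 3.69%) and 113 of 1195 (9.46%, 7.86 to 11.3%). A match is a description of the letters, and the classes differ in base composition.

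After the sequences had been seen, 2080 words of 6 letters, each counted with its reverse complement, were compared. AACGAA was in 29 of 83 summit windows of Pol II-negative promoter peaks with a Qk-/- Qki-5 peak (34.9%, 24.8 to 46.2%) and in 34 of 284 without one (11.97%, 8.44 to 16.3%), the largest difference of the 2080 words. In all it was in 63 of 367 windows (17.2%, 13.5 to 21.4%), against 75 of 4227 at Pol II-positive promoter peaks (1.77%, 1.40 to 2.22%) and 1641 of 77161 windows of the same length at all TSSs (2.13%, 2.03 to 2.23%). By the difference from Pol II-positive promoter peaks it ranked only 8 of the 2080 words, and by the ratio 2. A-rich words ranked higher by that difference, the first being AAAACA (24.0% of the 367 windows against 5.89%). In windows 300 bp to the left and right of the 367 summits AACGAA was in 21 (5.72%, 3.58 to 8.61%) and 28 (7.63%, 5.13 to 10.8%). The 10 strongest Pol II-negative promoter peaks held it in 6 cases, of which those at Igf2bp3, Tlx2, Nr5a1, Gm47071 and Gm20649 are marked in the sequences printed above. It was also in 13 of 86 summit windows outside promoters without Pol II that had a Qk-/- peak (15.1%, 8.30 to 24.5%), against 41 of 1109 without one (3.70%, 2.67 to 4.98%), a class that the ranking of the words did not use. That class did not single out the word, since A-rich words differed by more percentage points there. Examples were AAGAAA (47.7% with a Qk-/- peak against 22.8% without) and AAACAA (45.3% against 21.5%). At Pol II-positive promoters the shares with and without a Qk-/- peak were 2.40% (3 of 125) and 1.76% (72 of 4102).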

How the data were processed

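Peak lists were analysed for Qki-5, Pol II and Srebp2 in Qk-/- and WT cells, with groups taken from the labels. The authors' methods name Trim Galore for trimming, Bowtie2 for alignment to mm10, SAMtools for removal of duplicates and MACS2 for narrow peaks against input at q 0.05, whereas the submitters' processing notes name Bowtie 1.2.2, MACS2 2.1.2 and bcl2fastq. Which aligner made the lists could not be settled. As deposited, each peak has a fold enrichment (ratio) at its summit over input, −log10 p and −log10 q values, and a score. By a check of each peak, the deposited score is the whole part of 10 times −log10 q. Fold enrichment was ranked within a list only. Reads and input libraries were not analysed here.

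Peaks were overlapped by at least 1 bp, and promoters were 2 kb to either side of GENCODE M21 basic TSSs. Peaks up to 10 kb apart were joined into loci. Sequences are from the RefSeq copy of GRCm38 (mm10), read with pysam 0.24.0 and samtools 1.23.1. Words were searched on both strands within 100 bp of the summit. Python 3.11.15, numpy 2.4.6, pandas 2.3.3, scipy 1.17.1 and matplotlib 3.10.9 were used, and overlaps, word search and intervals were tested on simulated data. With 1 library a group, no p-value was computed. Genes named are those of the 10 strongest and 5 widest peaks, the 5 with the highest Qk-/- enrichment and peaks in a Srebp2 list. Named too are up to 8 peaks of each gene list and the peaks nearest the Pol II threshold on either side. Other peaks named, including those that overlapped Qk-/- Pol II, were picked with their values in view. The peaks and lists were chosen with earlier results of these data known. Alternatives changed the promoter window, the TSSs, the thresholds of both lists, the Pol II criterion, the overlap and the sequence window. Counting loci once, leaving out the Hoxa or chromosome 17 locus, RefSeq families, the CpG split and the search of all words of 6 letters were added after seeing the data. Results for some genes are not reported here.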

Additional observations from a re-analysis of the deposited data

How the results depend on the processing

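The number of Pol II-negative promoter peaks was 208 with a promoter window of 500 bp, 233 with TSSs of protein-coding genes only and 241 with each locus counted once, and in 10 of 13 alternatives it stayed within 1.5 times 367. The share with a Qk-/- Qki-5 peak was 18.4 to 25.9% over 16 alternatives, against 2.51 to 4.54% at Pol II-positive promoter peaks. It was lowest, at 18.4%, when only WT Pol II peaks of at least 5-fold counted, which also gave a share with Qk-/- Pol II of 3.81% and a share at listed developmental factors of 19.0%. The share with Qk-/- Pol II was 0 by construction when peaks with Qk-/- Pol II were left out. Among WT Qki-5 peaks of at least 5-fold, the medians were 6.47-fold and 518 bp, the share at listed developmental factors was 29.7% and the share with Srebp2 0. With TSSs of protein-coding genes only, these shares were 37.8% and 0, since the Gm23935 peak is at a noncoding gene. With each locus counted once, 17.01% were at listed developmental factors. Of 98 values under alternatives, 84 were unchanged within the counting interval or within 1.5 times. Shares of windows with a word were larger in longer windows, as at the Qki response element, 18.8% within 250 bp of the summit and 22.3% in whole peaks. No paired analysis was possible because each group has 1 library. Depth is unknown, so a peak that is not listed may be one that was not detectable.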

Other observations

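Of the 427 Qki-5 peaks of Qk-/- cells, 103 were at promoters without WT Pol II, and 11 of these overlapped no WT Qki-5 peak. They were named after their values were seen. The highest, 7.09-fold in Qk-/- cells, was at Gm13111 and Prdm16, a zinc-finger factor of brown fat and neural stem cells. Others were at Hoxa7 (6.71-fold), in the Hoxa locus that also held WT peaks, at the miRNA gene Mir196b of the same cluster (5.36-fold), at Pitx1 (5.39-fold) and at Tbx18 (4.95-fold), a T-box factor of the heart and ureter. The remaining peaks were at other genes. Gm32679, Mir128-2 and Gm47283 had 6.27-fold each in Qk-/- cells, above Mir196b, Pitx1 and Tbx18. Anapc15-ps had 5.39-fold, and the peaks at Tsc22d2 and at Gm10715, Gm26870 and Mir101c were weaker. The widths of all 11 peaks were 149 to 380 bp.

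The locus of pseudogenes Gm15039 to Gm15045 on chromosome X, from 137106878 to 137112126, held 7 Pol II-negative promoter peaks of 3.02- to 7.11-fold and none overlapped a Qk-/- peak. Values there, as at the rRNA genes of chromosome 17, are uncertain, because the treatment of reads that match several copies is not given in the sources used here. None of the 6 peaks at the locus of Dlx1, Dlx1as and Dlx2, of 3.92- to 9.59-fold, overlapped a Qk-/- peak. At the locus of Shox2 and Rsrc1, 3 of 4 peaks, of 6.31- to 15.8-fold, did so.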
